A study of Mus musculus with 6 samples.

Results

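The NMDA receptor subunit genes Grin1, Grin2a, Grin2b, Grin2c, Grin2d and Grin3a were followed across the nuclei of aged mouse hippocampus, with and without the volatile anaesthetic sevoflurane. They were taken by gene symbol and are 6 of the 32285 genes in the count matrices. The last gene of the family, Grin3b, was listed in every library but lay between 0.0955 and 0.384 CPM (counts scaled to a common library total) in dentate granule-like nuclei, and it is not described further. The study compared hippocampi of mice aged 18 to 20 months that had breathed 2% sevoflurane in 60% oxygen for 6 h with hippocampi of mice of the same age that had breathed 60% oxygen alone, both at 1 L/min. Nuclei were isolated from frozen tissue and sequenced in droplets from the 3' ends of transcripts, with 3 libraries for each treatment. No strain, time between exposure and dissection or number of animals per library is given in the labels, so the p-values below rest on the spread between libraries, which may be technical.

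NMDA receptors are glutamate-gated cation channels of several subunits, blocked by magnesium at rest, that let calcium into the postsynaptic neuron when glutamate binds while the membrane is depolarized. Every assembly needs the obligatory subunit GluN1, which Grin1 encodes and which binds glycine or D-serine. The GluN2 subunits, encoded by Grin2a to Grin2d, bind glutamate and set how fast the channel closes, and GluN3A, encoded by Grin3a, gives assemblies that pass little calcium and are weakly blocked by magnesium. In the hippocampus GluN2B is the main partner early in life, GluN2A is added as synapses mature, and these receptors are known for starting long-term potentiation.

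The members are distinct at the level of sequence, which bears on whether counts of one could hold reads of another. The stretch of 9 codons most alike across the 6 coding sequences lies in the third membrane segment, the helix that gates the pore. It is shown for 5 of them because it is where the family looks most like one gene, and capitals mark bases that differ from Grin1. The sequences were read on the minus strand from GENCODE M21 transcripts (mm10), each within 1 exon, at chr2:25297202-25297228 for Grin1, chr16:9653450-9653476 for Grin2a, chr11:115253752-115253778 for Grin2c, chr7:45854282-45854308 for Grin2d and chr4:49770473-49770499 for Grin3a.
Grin1: gcttcctacactgccaacctggcagcc
Grin2a: gcAAGTtacacAgccaacctggcTgcc
Grin2c: gctAGctacacGgccaaTctggcagcc
Grin2d: gcCAGctaTacAgccaaTctggcTgcc
Grin3a: TctAcAtacacAgcGaacTtggcTgcT
Even here the other members shown differ from Grin1 at 4 to 8 of 27 bases, and Grin3a also encodes another amino acid at 2 of the 9 codons. Over whole transcripts, the longest exact run shared by any pair of members was 34 bases, between Grin2b and Grin2c, and by any pair with Grin1 it was 17 bases. Overlapping genes are a separate matter. Grin1 shares 7706 bases with the antisense gene Grin1os and Grin2b shares 9288 bases with the antisense gene Gm14330, and the sources used here do not say whether reads were counted by strand. Grin2d shares 5607 bases with Kdelr1 on the other strand, which had 18.4 CPM over all nuclei. Grin3a shares 3278 bases with Ppp3r2 on its own strand, which had 0.665 CPM.

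The libraries held 56334621 to 72636984 unique molecular identifiers (UMIs) each, and 52038 nuclei were kept, 8947 to 9735 per sevoflurane library and 7759 to 8826 per oxygen library. Between 96 and 118 cell barcodes of a library also occurred in another. The labelled sex did not match the sex-linked transcripts in 3 libraries: sevoflurane 1, labelled male, had 1363 CPM of Xist and 0.364 CPM summed over 4 Y-linked genes, while sevoflurane 3 and oxygen 3, labelled female, had under 1 CPM of Xist and 373 and 367 CPM of the Y-linked genes. Sevoflurane 1 was therefore the 1 library with a female pattern, and calls lost without it are named with the left-out libraries below. Nuclei were clustered without the Grin genes and named from marker genes, hence the ending "-like", and 12 classes had at least 20 nuclei in each library. RNA of choroid plexus markers was lower in every sevoflurane library than in every oxygen library in all 12 tested classes, for example 29.4 to 31.7 CPM after sevoflurane against 90.6 to 389 CPM with oxygen in dentate granule-like nuclei. Its part in the results was not tested.

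The orders of classes here and below leave out the unnamed clusters. Grin1, which every NMDA receptor contains, was found in every neuronal class, with higher means in the excitatory than in the inhibitory classes. Its mean over the 6 libraries was highest in CA1 pyramidal-like nuclei, at 581 CPM, followed by dentate granule-like nuclei at 550 CPM and CA2 pyramidal-like nuclei at 519 CPM, and it lay between 352 and 425 CPM in the inhibitory classes. The ranges of the 6 libraries overlapped between every pair of neighbours in this order, although within libraries some steps went one way in 6 of 6, such as hilar mossy-like nuclei at 471 CPM over septal inhibitory-like nuclei at 425 CPM. Both are small classes: hilar mossy-like nuclei numbered 18 to 37 per library. Septal inhibitory-like nuclei numbered 163, 214 and 183 in the sevoflurane libraries but 15, 13 and 18 in the oxygen libraries. The bearing of this difference on sums over all nuclei was not tested. Cajal-Retzius-like nuclei had 237 CPM, and astrocyte-like nuclei 87.3 CPM against 125 CPM in microglia-like nuclei. Neuronal transcripts set free during isolation may reach all droplets, but free RNA was not measured here. A level in glia at or under that of microglia, taken here as the class that should lack these subunits, is read as background. This baseline is an assumption, and the mean of pericyte-like nuclei was above it, at 132 CPM of Grin1, with overlapping libraries.

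The glutamate-binding subunits Grin2a and Grin2b divided the neurons. Grin2a was highest in CA1 pyramidal-like nuclei at 4163 CPM, dentate granule-like nuclei at 3880 CPM and Lamp5 inhibitory-like nuclei at 3580 CPM. It was lower in CA3 pyramidal-like nuclei at 2843 CPM and in CA2 pyramidal-like nuclei at 2475 CPM, and a step at which no library overlapped lay between hilar mossy-like nuclei at 2408 CPM and subicular or cortical excitatory-like nuclei at 1638 CPM. Parvalbumin and Vip inhibitory-like nuclei were the lowest of the tested inhibitory types, at 632 and 582 CPM, and overlapped each other.

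Grin2b had a flatter profile. It was 2450 CPM in CA1 pyramidal-like, 2120 CPM in Vip inhibitory-like and 2096 CPM in CA2 pyramidal-like nuclei, with overlapping libraries between these neighbours. Dentate granule-like nuclei, at 1866 CPM, were lower than CA2 pyramidal-like nuclei in 6 of 6 libraries. Its lowest neuronal levels other than Cajal-Retzius-like nuclei were 1224 CPM in somatostatin and 1092 CPM in Lamp5 inhibitory-like nuclei. In astrocyte-like nuclei Grin2a and Grin2b were at 216 and 439 CPM, and in microglia-like nuclei at 319 and 423 CPM. The astrocyte values are therefore not above the microglia level for Grin2a and are close to it for Grin2b.

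**Figure D1:**
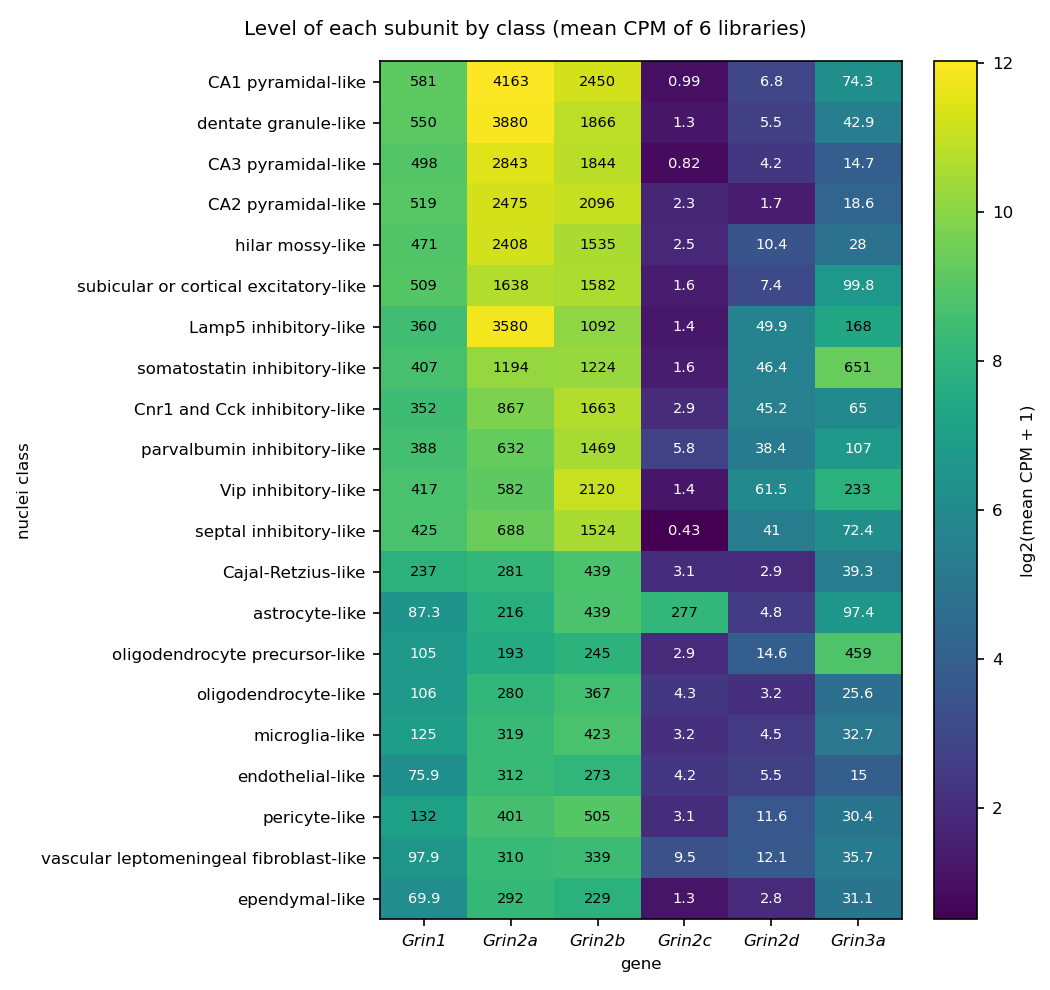
Mean CPM of each subunit (columns) in each class of nuclei (rows) over 6 libraries, printed in each cell, with colour giving log2(mean CPM + 1). Grin1, Grin2a and Grin2b fill the neuronal rows, Grin2c stands out in astrocyte-like nuclei at 277 CPM, and Grin3a in somatostatin inhibitory-like and oligodendrocyte precursor-like nuclei at 651 and 459 CPM.

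The count ratio of Grin2a to Grin2b therefore differed by type. It was 3.25 in Lamp5 inhibitory-like nuclei, 2.08 in dentate granule-like and 1.69 in CA1 pyramidal-like nuclei, close to 1 in subicular or cortical excitatory-like (1.03) and somatostatin inhibitory-like nuclei (0.974), and 0.264 in Vip inhibitory-like nuclei. Long genes can collect more counts in nuclei where intronic reads are counted, and whether they were is not given here. Values per length are therefore set beside the counts as another scale, and which scale is the better was not tested. Per 100 kb of gene span, CA1 pyramidal-like nuclei had 2076 CPM of Grin1, 973 CPM of Grin2a and 532 CPM of Grin2b, and dentate granule-like nuclei had 1962, 907 and 405 CPM of the same genes. On that scale Grin1 was the highest member in every neuronal class, and the order of Grin2a and Grin2b within a class was unchanged except where their counts were nearly equal.

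Grin2c, a subunit best known from cerebellar granule cells and astrocytes, was found almost only in astrocyte-like nuclei. They held 277 CPM, and all 6 of their libraries lay above every library of the next class, vascular leptomeningeal fibroblast-like nuclei at 9.47 CPM. With each nucleus thinned to 2000 UMIs, 40.6% of astrocyte-like nuclei had a Grin2c UMI, against 0.458% of microglia-like and 0.106% of CA1 pyramidal-like nuclei. Unthinned, the shares were 51.5% of astrocyte-like nuclei at a median of 2993 UMIs, 0.609% of microglia-like nuclei at 2049 UMIs and 1.08% of CA1 pyramidal-like nuclei at 10087 UMIs. In counts Grin2b was higher in astrocyte-like nuclei, at 439 CPM, but per length Grin2c was the highest subunit there, at 1534 CPM per 100 kb of span.

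Grin2d, known in adult brain from interneurons, was low but separated the inhibitory from the excitatory types. It lay between 38.4 CPM in parvalbumin and 61.5 CPM in Vip inhibitory-like nuclei, with overlap between all neighbours in that order, and every library of parvalbumin inhibitory-like nuclei was above every library of the next class down. Excitatory types with at least 20 nuclei in each library had 1.65 to 7.39 CPM. Oligodendrocyte precursor-like nuclei had 14.6 CPM, against 4.52 CPM in microglia-like nuclei. At 2000 UMIs, 9.67% of inhibitory-like nuclei had a Grin2d UMI, against 0.687% of microglia-like nuclei.

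Grin3a, whose product makes receptors of low calcium entry, marked a different set. Somatostatin inhibitory-like nuclei had 651 CPM and oligodendrocyte precursor-like nuclei 459 CPM, somatostatin being higher in 6 of 6 libraries although the ranges overlapped across treatments. Among the named classes, Vip inhibitory-like nuclei followed at 233 CPM and Lamp5 inhibitory-like nuclei at 168 CPM. CA3 pyramidal-like nuclei were the lowest of them at 14.7 CPM, under the 32.7 CPM of microglia-like nuclei. Clusters left unnamed are outside this order: cluster 32 had 255 CPM, cluster 21 had 166 CPM and cluster 26 had 12.1 CPM. At 2000 UMIs, 62.4% of somatostatin inhibitory-like and 55.2% of oligodendrocyte precursor-like nuclei had a Grin3a UMI, against 4.47% of microglia-like nuclei. The unthinned shares were 88.8% at a median of 9057 UMIs, 71.3% at 3534.5 UMIs and 6.21% at 2049 UMIs in the same 3 classes. Astrocyte-like nuclei were also above the microglia level, at 97.4 CPM and a thinned share of 14.1%.

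Genes with the most similar profile were sought by Pearson correlation of log2(CPM + 1) over 21 classes, whose points share libraries and may share free RNA. Grin1 ran closest to Svop, a synaptic vesicle protein gene (r = 0.972), then Unc13a and Trank1. Grin2a ran closest to Kcnj6, a potassium channel gene (0.928), then Epha6 and Mlip. Grin2b ran closest to its own antisense neighbour Gm14330 (0.978), then Grin1 itself and Rbfox3. The closest genes to Grin2d were Gipc2 (0.92), C130073E24Rik and Gm45341, to Grin3a Olfm2 (0.851), Ptprt and Ptpn4, and to Grin2c 2900052N01Rik (0.916), Gm35552 and C030018K13Rik. Spearman's rho lay between 0.790 and 0.948 for the genes named with the other members, but 0.682, 0.225 and 0.447 for those named with Grin2c, which was high in 1 class.

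After sevoflurane, Grin2a passed the test as lower in 3 of the 5 tested excitatory classes and Grin2b in 2 of them, and Grin3a was lower in inhibitory-like, oligodendrocyte precursor-like, dentate granule-like and CA1 pyramidal-like nuclei. Of 60 member and class pairs tested over 12 classes, 9 were lower and 1 was higher (edgeR quasi-likelihood test, Benjamini-Hochberg adjusted p under 0.05 over all genes of a class). Over all genes and the same classes, 1.22% of tests were called lower and 0.518% higher. Once the trend along gene span was taken out, 1 pair was called lower and 1 higher, and the values are given after the members. The shares over all genes are of the fit without this correction. In CA1 pyramidal-like nuclei, where these pairs lie, 98 of 15341 genes were called lower and 55 higher with it. Without it, 222 were called lower and 78 higher there. Values below are CPM after TMM normalization of class sums. Fewer transcripts per nucleus and a shift in which nuclei make up a class cannot be told apart in these sums.

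Grin2a passed in the most excitatory classes. In dentate granule-like nuclei it had 3357, 3460 and 3478 CPM in the sevoflurane libraries, against 4354, 4456 and 4316 CPM in the oxygen libraries. The groups lay well apart, and the fall was 0.35 on the log2 scale (SE 0.05, adjusted p = 0.00514, edgeR), in a class where 3.12% of genes were called lower and 1.42% higher. In CA1 pyramidal-like nuclei it had 3503, 3670 and 3620 CPM after sevoflurane and 4747, 5074 and 4533 CPM with oxygen. Again no library of one group reached the other, and Grin2a fell by 0.41 (SE 0.06, adjusted p = 0.00721), where 1.45% of genes were called lower and 0.508% higher.

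Subicular or cortical excitatory-like nuclei had 1286, 1510 and 1457 CPM of Grin2a after sevoflurane and 1966, 1942 and 1751 CPM with oxygen. The fall was 0.41 (SE 0.09, adjusted p = 0.0399, edgeR; 1.05% of genes called lower and 0.347% higher). In CA2 and CA3 pyramidal-like nuclei the libraries did not overlap either, with log2 differences of -0.32 (SE 0.08) and -0.24 (SE 0.06), but neither passed the test. Over the 12 classes Grin2a was negative in 10, and in 6 of them the libraries did not overlap; over all genes and classes 10.3% of tests had all sevoflurane libraries lower and 8.82% all higher. In astrocyte-like nuclei, where it is under the microglia level, the difference was -0.16 (SE 0.13).

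Grin2b moved the same way by less. Dentate granule-like nuclei had 1732, 1683 and 1666 CPM after sevoflurane, against 2062, 2068 and 2037 CPM with oxygen. It fell by 0.28 (SE 0.05, adjusted p = 0.0175, edgeR). CA1 pyramidal-like nuclei had 2301, 2139 and 2198 CPM after sevoflurane and 2720, 2744 and 2675 CPM with oxygen. There it fell by 0.29 (SE 0.05, adjusted p = 0.024, edgeR), and the groups were again apart. The other 10 classes did not pass; inhibitory-like nuclei, whose libraries did not overlap, had a difference of -0.19 (SE 0.07, adjusted p = 0.212, edgeR).

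**Figure D2:**
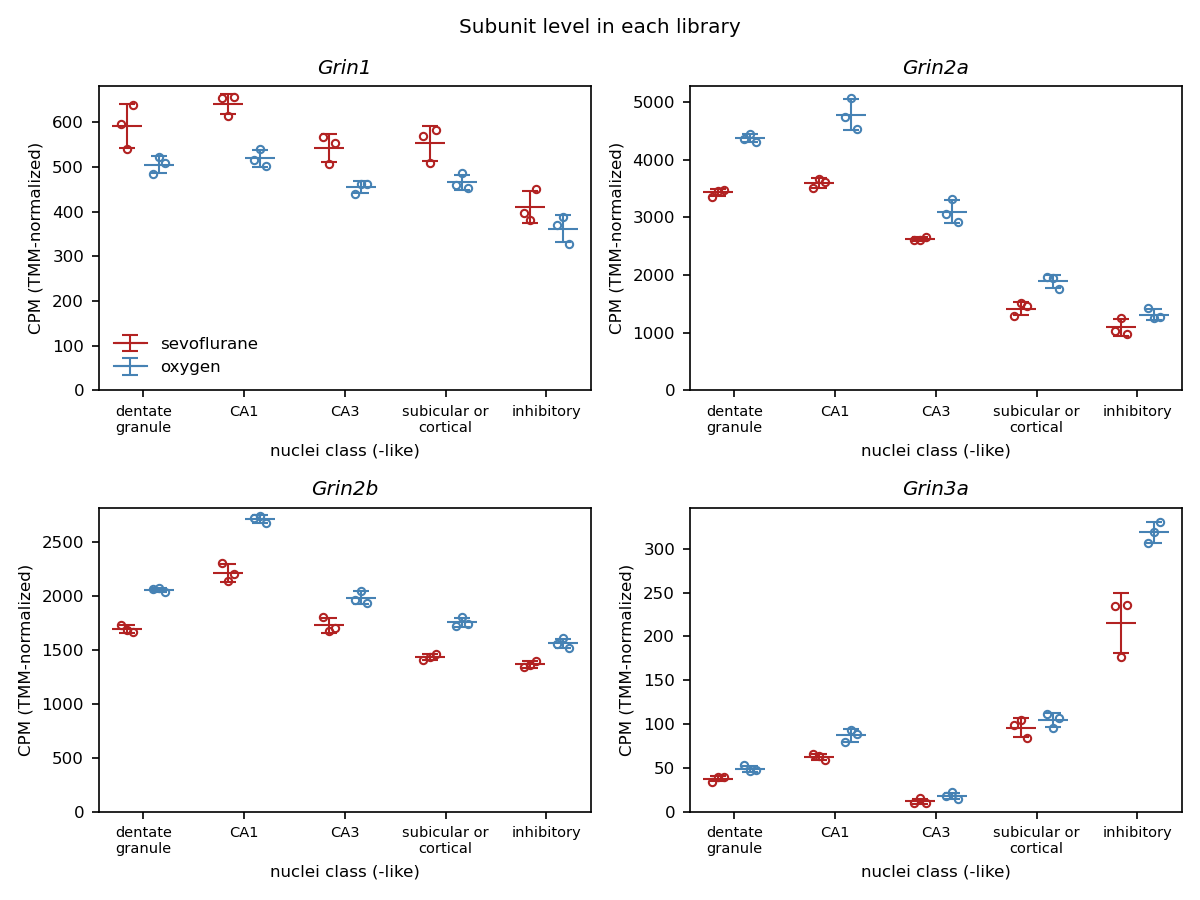
TMM-normalized CPM (vertical axes, from 0) of 4 subunits in the sevoflurane (red) and oxygen (blue) libraries of 5 classes; circles are libraries, and bars the mean and SD of 3. Grin1 circles of sevoflurane lie above those of oxygen in the 4 excitatory classes, and Grin2a and Grin2b circles lie below them.

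Grin1 went the other way. CA1 pyramidal-like nuclei had 653, 614 and 655 CPM after sevoflurane, against 515, 540 and 503 CPM with oxygen. The libraries did not overlap, and Grin1 rose by 0.30 (SE 0.06, adjusted p = 0.0357, edgeR). In dentate granule-like nuclei the values were 595, 540 and 639 CPM after sevoflurane and 484, 522 and 508 CPM with oxygen, also without overlap, but the difference of 0.23 (SE 0.07) did not pass (adjusted p = 0.112, edgeR). The log2 difference was positive in 12 of 12 classes, between 0.16 and 0.46, and in 8 of them the libraries did not overlap. Over all genes and classes, 8.82% of tests had all sevoflurane libraries higher. The 12 classes come from the same 6 libraries, so their agreement is not independent. These classes include glia, where Grin1 is at a level read as background: microglia-like nuclei had a difference of 0.40 (SE 0.19) and overlapped.

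Grin3a fell in 4 of the 11 classes in which it was tested, and its difference was positive in 3 of the 11. In astrocyte-like and CA3 pyramidal-like nuclei it was -0.61 (SE 0.18 and 0.21), with overlapping libraries. Neither passed (adjusted p = 0.116 and 0.196, edgeR). Dentate granule-like nuclei had 34.0, 39.5 and 39.3 CPM after sevoflurane, against 52.7, 46.3 and 47.3 CPM with oxygen, a fall of 0.37 (SE 0.09, adjusted p = 0.0492, edgeR). CA1 pyramidal-like nuclei had 65.5, 63.3 and 59.0 CPM after sevoflurane and 79.0, 93.5 and 89.1 CPM with oxygen. No library overlapped there, and the fall was 0.48 (SE 0.08, adjusted p = 0.0154, edgeR).

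In inhibitory-like nuclei Grin3a had 235, 176 and 236 CPM after sevoflurane, against 306, 319 and 331 CPM with oxygen. The groups lay apart, and it fell by 0.56 (SE 0.10, adjusted p = 0.0159, edgeR; 1.05% of genes called lower and 0.342% higher). Oligodendrocyte precursor-like nuclei had 434, 362 and 413 CPM after sevoflurane and 555, 608 and 493 CPM with oxygen. The groups were apart here too, and the fall was 0.46 (SE 0.12, adjusted p = 0.0434, edgeR; 1.06% called lower and 0.0939% higher). In both classes the summed level of the class's own markers was also lower after sevoflurane without overlap, at 6998 to 8112 CPM against 8196 to 9392 CPM over 6 inhibitory markers, and at 9833 to 11530 CPM against 11535 to 12339 CPM over 8 precursor markers, with no marker at 0; its part in the fall was not tested. CA1 pyramidal-like nuclei showed the same over their 8 markers (1021 to 1103 CPM after sevoflurane, 1106 to 1218 CPM with oxygen), while dentate granule-like nuclei had more of theirs (11174 to 12118 CPM after sevoflurane, 9740 to 10386 CPM with oxygen).

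Within the inhibitory nuclei, the Grin3a fall was seen in the somatostatin and Vip types. Vip inhibitory-like nuclei, 359 in all, had 173, 179 and 104 CPM after sevoflurane, against 293, 392 and 382 CPM with oxygen. Every sevoflurane library was below every oxygen library, and the fall was 1.24 (SE 0.19, adjusted p = 0.000601, edgeR; 0.624% of genes called lower and 0.198% higher). Somatostatin inhibitory-like nuclei had 558, 447 and 612 CPM after sevoflurane and 709, 802 and 873 CPM with oxygen, a fall of 0.56 (SE 0.11, adjusted p = 0.0138, edgeR; 0.802% called lower and 0.17% higher). In parvalbumin, Lamp5 and Cnr1 and Cck inhibitory-like nuclei the libraries overlapped, with log2 differences of -0.28 (SE 0.17), -0.69 (SE 0.26) and 0.24 (SE 0.26), and none passed; whether the types differ was not tested. The own-marker sums of Vip inhibitory-like nuclei overlapped between the groups, at 524 to 622 CPM after sevoflurane and 501 to 652 CPM with oxygen. Summed over all nuclei, Grin3a had 67.5, 60.8 and 66.6 CPM after sevoflurane and 93.7, 88.0 and 93.4 CPM with oxygen, and fell by 0.50 (SE 0.06, adjusted p = 0.0205, edgeR; 1.28% called lower and 0.803% higher).

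Grin2c and Grin2d gave no call. In astrocyte-like nuclei Grin2c had 273, 231 and 290 CPM after sevoflurane, against 279, 315 and 296 CPM with oxygen. The libraries overlapped, and the difference was -0.17 (SE 0.13, adjusted p = 0.594, edgeR; 1.19% of genes called lower and 0.927% higher). Grin2d had 39.7, 40.9 and 48.7 CPM in inhibitory-like nuclei after sevoflurane and 49.7, 48.8 and 45.8 CPM with oxygen, overlapping, with a difference of -0.16 (SE 0.11). With edgeR, 0 of 6 class tests of Grin2c and 0 of 7 of Grin2d passed; 0 and 0 had an unadjusted p under 0.05, and of the 2 and 1 tests to which DESeq2 gave an adjusted p it called 0.

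**Figure D3:**
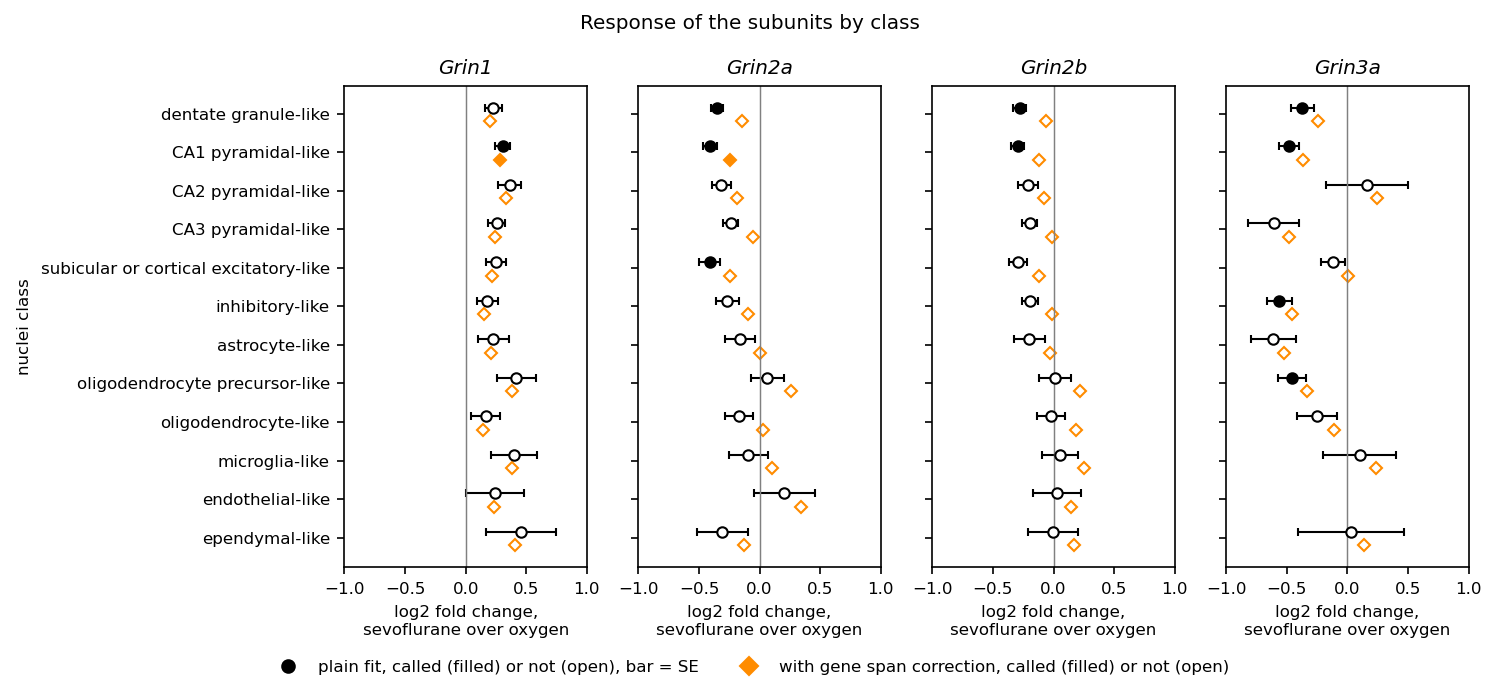
Log2 fold change, sevoflurane over oxygen, of 4 subunits (panels) in 12 classes (rows); circles with SE bars are the plain fit and diamonds the fit with the gene span correction, filled where the adjusted p was under 0.05. Grin1 is right of 0 in 12 of 12 classes, and the diamonds of Grin2a and Grin2b lie nearer 0 than the circles in the neurons.

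The span of a gene moved with the response. In dentate granule-like nuclei the median log2 difference was 0.05 over the 4927 genes with a span of 10 to 30 kb and -0.23 over the 573 genes above 300 kb, and in CA1 pyramidal-like nuclei 0.04 over 4718 genes and -0.18 over 569 genes. Genes above 100 kb had a negative median in 12 of 12 classes. Grin2a spans 428 kb, Grin2b 460 kb and Grin3a 184 kb, while Grin1 spans 28.0 kb, Grin2d 46.5 kb and Grin2c 18.1 kb.

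With the trend along span taken out of the counts, 4 of the 13 calls over all fits were kept. Those kept were Grin2a in CA1 pyramidal-like nuclei, which fell by 0.24, Grin1 in CA1 pyramidal-like nuclei, which rose by 0.28, and Grin3a in Vip inhibitory-like nuclei and over all nuclei, which fell by 1.15 and 0.37. Grin2a and Grin2b in dentate granule-like nuclei had corrected differences of -0.14 and -0.06 and no longer passed, nor did Grin2b in CA1 pyramidal-like nuclei at -0.12. Grin2a did not pass in subicular or cortical excitatory-like nuclei (-0.24), and Grin3a did not in dentate granule-like (-0.24), CA1 pyramidal-like (-0.37), somatostatin (-0.45) or all inhibitory-like nuclei (-0.45), or in oligodendrocyte precursor-like nuclei (-0.34). Grin2a was then negative in 7 of 12 classes and Grin2b in 7, while Grin1 was positive in 12.

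**Figure D4:**
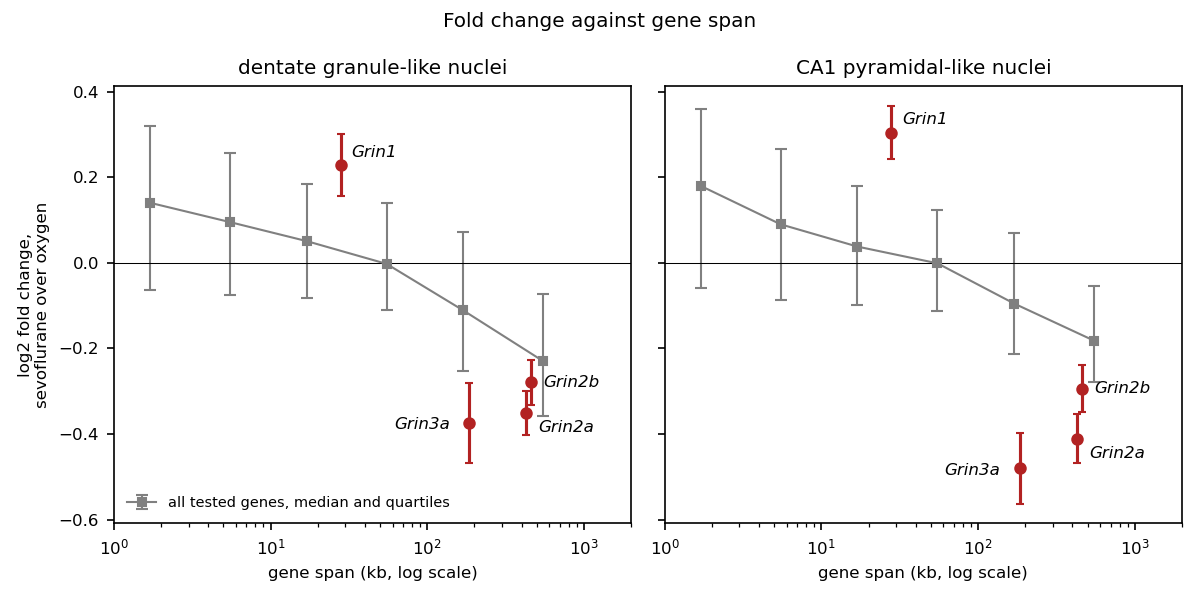
Log2 fold change, sevoflurane over oxygen, against gene span (log axis) in dentate granule-like (left) and CA1 pyramidal-like nuclei (right); grey squares are medians of all tested genes by span bin with their quartiles, placed within the bin, and red circles are the members with SE bars. Grin2a and Grin2b lie within the quartiles of the longest genes in dentate granule-like nuclei and below them in CA1 pyramidal-like nuclei. Grin1 lies above and Grin3a below the quartiles of genes of its span in both classes.

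Leaving out libraries changed p-values more than fold changes. With each library left out in turn, Grin2a was called lower every time in dentate granule-like nuclei (falls of 0.34 to 0.37) and in CA1 pyramidal-like nuclei (0.37 to 0.46), and Grin3a in Vip inhibitory-like nuclei (1.01 to 1.38). Without sevoflurane 1, the library of female pattern, the calls lost were Grin3a in dentate granule-like nuclei (0.31) and Grin2a in subicular or cortical excitatory-like nuclei (0.35). These calls were also lost without sevoflurane 2, oxygen 1, oxygen 2 or oxygen 3, with falls of 0.32 to 0.41 and 0.38 to 0.46, and that of Grin3a without sevoflurane 3 (0.42).

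Grin2b in dentate granule-like nuclei was not called without sevoflurane 2, oxygen 1, oxygen 2 or oxygen 3, with falls of 0.27 to 0.29. In CA1 pyramidal-like nuclei neither Grin2b (falls of 0.27 to 0.31) nor Grin1 (rises of 0.27 to 0.33) was called without sevoflurane 2, sevoflurane 3 or any oxygen library, and Grin3a was not without sevoflurane 2, oxygen 2 or oxygen 3 (0.43 to 0.49). Grin3a was not called in inhibitory-like nuclei without any 1 of the oxygen libraries (0.53 to 0.59), in oligodendrocyte precursor-like nuclei without sevoflurane 2, sevoflurane 3 or any 1 oxygen library (0.38 to 0.53), in somatostatin inhibitory-like nuclei without sevoflurane 2, oxygen 2 or oxygen 3 (0.44 to 0.56), or over all nuclei without sevoflurane 2 or any 1 oxygen library (0.45 to 0.53).

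The mean log2 ratio of Grin2a to Grin2b was lower after sevoflurane in 9 of the 12 tested classes, and in 3 of these 12 the libraries did not overlap. In dentate granule-like nuclei it averaged 1.02 ± 0.06 after sevoflurane and 1.09 ± 0.02 with oxygen (SD, n = 3 each), a difference of -0.07 with p = 0.10 in the two-sided exact permutation test, the smallest p that 3 against 3 libraries allow. The libraries did not overlap. In CA1 pyramidal-like nuclei the ratio averaged 0.70 ± 0.09 after sevoflurane and 0.82 ± 0.06 with oxygen, and overlapped (exact permutation p = 0.20). The libraries did not overlap in CA2 pyramidal-like nuclei (0.18 ± 0.01 after sevoflurane, 0.29 ± 0.03 with oxygen), in ependymal-like nuclei (0.17 ± 0.23 after sevoflurane, 0.48 ± 0.10 with oxygen) or in the Lamp5 inhibitory-like type (1.61 ± 0.05 after sevoflurane, 1.80 ± 0.12 with oxygen), each with an exact permutation p of 0.10.

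**Figure D5:**
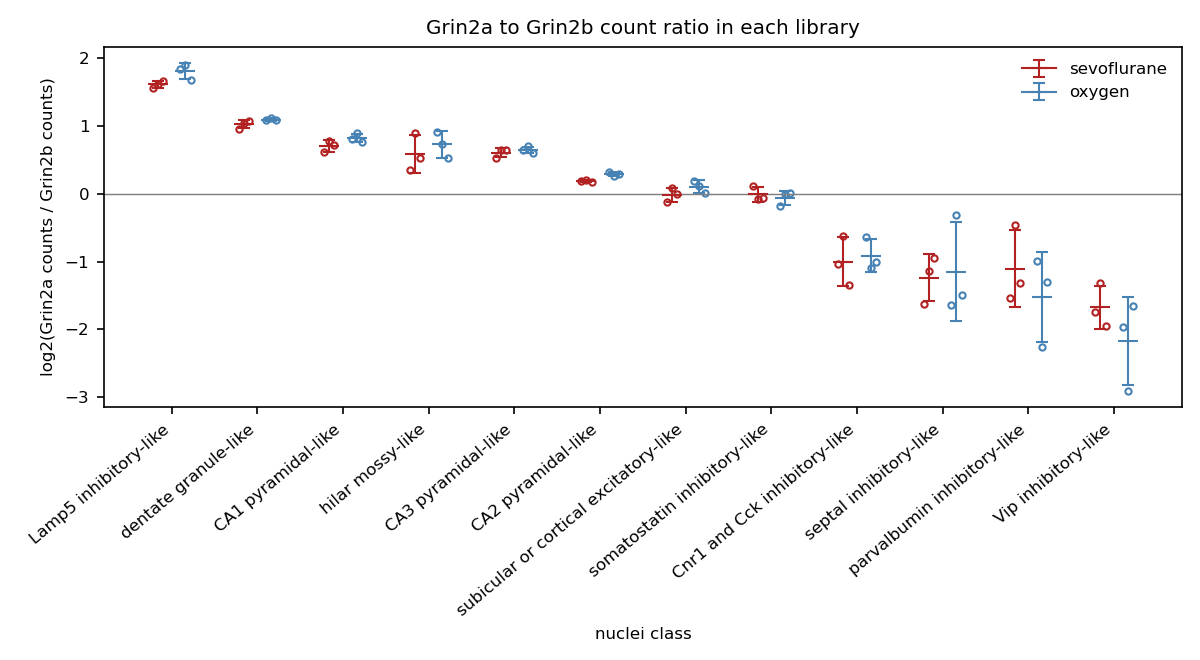
Log2 ratio of Grin2a to Grin2b counts (vertical axis) in the sevoflurane (red) and oxygen (blue) libraries of 12 neuronal classes; circles are libraries and bars mean and SD of 3. The ratio differs far more between classes, 3.25 in Lamp5 and 0.264 in Vip inhibitory-like nuclei on the linear scale, than between treatments.

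Whether the responses differ between types was tested for 3 pairs of classes as a difference of differences within libraries (limma). Dentate granule-like against CA1 pyramidal-like nuclei gave 0.05 (SE 0.07) for Grin2a, -0.09 (SE 0.07) for Grin1 and 0.09 (SE 0.17) for Grin3a. Against astrocyte-like nuclei Grin2a gave -0.17 (SE 0.16), and against inhibitory-like nuclei Grin3a gave 0.20 (SE 0.23). Of 18 such differences 0 passed and 0 had an unadjusted p under 0.05; over all genes 0%, 0.0163% and 0% were called in the 3 pairs. These tests do not show that the types respond alike.

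Genes that work with the receptor were followed in 4 lists of 61 genes in all. Of 15 postsynaptic scaffold genes, 2 fell in dentate granule-like nuclei, where the list's median log2 difference was -0.16 against 0.02 over all genes. They were Dlg1 (SAP97), with 176 ± 9 CPM after sevoflurane and 232 ± 3 CPM with oxygen (SD, n = 3 each), and Dlgap1, a scaffold that links PSD-95 to Shank, which fell by 0.26. Dlgap1 also fell by 0.26 in CA1 pyramidal-like and 0.29 in inhibitory-like nuclei, and its relative Dlgap3 by 0.39 in CA1 and 0.41 in CA3 pyramidal-like nuclei (in CA3, 1.4% of genes were called lower and 0.226% higher). With the span correction Dlgap1 did not pass in these 3 classes, with differences of -0.00309 in dentate granule-like, -0.06 in CA1 pyramidal-like and -0.08 in inhibitory-like nuclei. Shank2 fell by 0.34 in CA3 pyramidal-like and Dlgap2 by 0.46 in subicular or cortical excitatory-like nuclei. With the correction Dlgap3 passed in CA3 pyramidal-like nuclei (-0.39) but not in CA1 pyramidal-like nuclei (-0.37). Dlg1 (-0.25), Shank2 (-0.16) and Dlgap2 (-0.27) did not pass in the classes named.

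Of 23 kinases, phosphatases and calcium effectors of the receptor, 2 or 3 fell in each of the 4 larger excitatory classes (edgeR, adjusted p under 0.05, as for all partners named). Protein kinase C genes were among them: Prkcb fell by 0.31 in CA1 pyramidal-like nuclei, Prkca by 0.37 in CA3 pyramidal-like nuclei, and Prkca by 0.70 in subicular or cortical excitatory-like nuclei, where it had 160 ± 4 CPM after sevoflurane and 260 ± 34 CPM with oxygen (SD, n = 3 each). Prkcb also fell in subicular or cortical excitatory-like nuclei, by 0.42. In dentate granule-like nuclei Camk2d fell by 0.66 and the calcineurin gene Ppp3ca by 0.24, and in CA3 pyramidal-like nuclei Nos1, the neuronal nitric oxide synthase gene, fell by 0.69. With the span correction Prkcb did not pass in CA1 pyramidal-like (-0.16) or subicular or cortical excitatory-like nuclei (-0.25). Prkca did not in CA3 pyramidal-like nuclei (-0.19), nor did Nos1 there (-0.57) or Ppp3ca in dentate granule-like nuclei (-0.07). Prkca in subicular or cortical excitatory-like nuclei (-0.53) and Camk2d in dentate granule-like nuclei (-0.50) still passed. In astrocyte-like nuclei Prkca rose by 0.72, while Camk2g and Camk2d fell by 0.57 and 0.51, and in endothelial-like nuclei Fyn, a kinase of GluN2 subunits in neurons, rose by 0.86 (1.13% of genes called lower and 1.31% higher). With the correction Prkca (0.88) and Camk2g (-0.57) in astrocyte-like nuclei and Fyn (0.96) in endothelial-like nuclei passed. Camk2d in astrocyte-like nuclei (-0.39) did not.

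The glycine and D-serine supply list gave 1 call, Slc1a4, a serine transporter gene that fell by 0.64 in astrocyte-like nuclei, with 43.6 ± 1.9 CPM after sevoflurane and 67.7 ± 13.6 CPM with oxygen (SD, n = 3 each). Of 13 trafficking genes, Apba1 fell by 0.39 in inhibitory-like nuclei and Cask by 0.63 in oligodendrocyte precursor-like nuclei. Both encode parts of an adaptor complex with Lin7 proteins that carries GluN2B-containing vesicles in neurons. With the span correction neither Apba1 (-0.28) nor Cask (-0.45) passed, while Slc1a4 did in astrocyte-like nuclei (-0.66). Over the 12 classes, 8 of 176 tests of scaffold genes were lower, 11 of 264 tests of kinases, phosphatases and effectors were lower and 2 higher, 1 of 57 tests of supply genes was lower and 2 of 143 tests of trafficking genes were lower, against 1.22% lower and 0.518% higher over all genes. The shares for supply and trafficking genes are near this background, which is of the fit without the span correction. With the span correction 1 test was called lower and 1 higher for scaffolds, 4 lower and 4 higher for kinases, phosphatases and effectors, 1 lower and 0 higher for supply genes, and 0 lower and 1 higher for trafficking genes.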

How the data were processed

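The submitters' processing notes name fastp, Cell Ranger 7.1.0 and the build mm10. For the annotation, intronic reads and strand, what was done is not given in the sources used here. Matrices as deposited hold raw UMI counts per gene and barcode, whole numbers in barcodes selected by the authors. The members, lists and rules were chosen with earlier results of these data known.

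Of 53824 barcodes, 53287 had at least 500 UMIs, 300 genes and at most 5% mitochondrial UMIs, and 1249 were removed as doublets by Scrublet at a score common to all libraries, since its automatic threshold called 0 in oxygen 1. The 3000 most variable genes, without Grin, mitochondrial, ribosomal and sex-linked genes, gave 40 components and a graph of 20 neighbours (scanpy 1.11.5), split into 53 clusters by Leiden at resolution 1 (igraph 0.11.9). A name required at least 3 markers of 1 list with 10 CPM that stood 2 times above the other nuclei; 24 clusters, 9912 nuclei, stayed unnamed. Inhibitory types were split at resolution 2.

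Counts were summed per library and class, and sevoflurane was compared with oxygen with edgeR 4.0.16 (R 4.3.3): quasi-likelihood test, TMM, filterByExpr, treatment as the only term, Benjamini-Hochberg adjustment over all genes of a class. Levels across classes are plain CPM of these sums, and TMM scaling was used for the treatment comparison. For the span correction, a lowess trend of each library's log2 deviation on log10 gene span entered as an offset. Differences between classes used limma 3.58.1, and DESeq2 1.42.0 was an alternative. On simulated counts for dentate granule-like nuclei, 84 of 97 genes changed by 1 on the log2 scale and 30 of 99 changed by 0.5 were recovered. The simulation gave every gene the same fixed spread between libraries, not estimated from these data, and changes under 0.5 were not simulated. Shares of nuclei with a UMI were thinned to 2000 UMIs, leaving out shallower nuclei: 490 astrocyte-like, 770 microglia-like, 87 CA1 pyramidal-like, 22 somatostatin inhibitory-like, 42 inhibitory-like and 79 oligodendrocyte precursor-like.

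The text names the 6 members, Grin3b once, for each partner list up to 3 called genes per direction with the smallest p in a class, and the 3 genes of most similar profile among those with at least 20 CPM in a class. The alternatives were other size factors, DESeq2, no count filter, the span correction, the replicate number as a block, doublets kept, a stricter filter on nuclei (1000 UMIs, 1% mitochondrial), resolution 2 and leaving out each library. The sequence of 1 member and the values of 1 partner gene are not reported here.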

Additional observations from a re-analysis of the deposited data

How the results depend on the processing

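The count of 9 member and class pairs lower after sevoflurane was 9 with DESeq2's size factors, the stricter filter on nuclei and resolution 2, and 8 with called doublets kept; it was 14 with DESeq2, 15 with no filter on low counts, 1 with the gene span correction, and 2 to 7 with each library left out. The 1 pair higher was 3 with DESeq2, 2 with no filter, 1 with the span correction and 0 to 1 with each library left out. The background over all genes changed with the setting too. In inhibitory-like nuclei DESeq2 called 361 of 2143 genes lower, no filter 382 of 24144 and the main fit 148 of 14034. In ependymal-like nuclei these were 7 of 6333, 17 of 19706 and 12 of 6609. More called pairs are therefore not read as a stronger result for the members. DESeq2 and the unfiltered fit ended 0 of the 13 calls over all fits and added 12 and 9, with 0 changes of direction. What the replicate numbers stand for is not given. In no class were all 3 same-numbered correlations over 0.1. With 3 libraries per group this cannot decide whether the samples are paired. With the replicate block the pairs lower were 5 and the pairs higher 0. With the block and the span correction both counts were 0. The Grin2a to Grin2b log2 ratio difference in dentate granule-like nuclei was -0.07 with the block and lay between -0.09 and -0.04 with each library left out. Kept doublets, the stricter filter and resolution 2 were not run for inhibitory types or all nuclei. With 1 library left out the fits hold 5 libraries; beyond this the cause of lost calls was not tested. Outside astrocyte-like nuclei Grin2c averaged at most 9.47 CPM in a named class, and the recovery of changes at such a depth was not tested.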

Other observations

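The ratio of Grin1 counts to the sum of Grin2a and Grin2b counts was looked at after the values of the 3 genes had been seen, so it is given with no test. In dentate granule-like nuclei its log2 value averaged -3.12 ± 0.12 after sevoflurane and -3.67 ± 0.05 with oxygen (SD, n = 3 each). In CA1 pyramidal-like nuclei it averaged -3.18 ± 0.05 after sevoflurane and -3.85 ± 0.01 with oxygen. The ratio was higher after sevoflurane in 12 of 12 classes, and in 10 of them the libraries did not overlap, glia at a level read as background among them. Grin1 is the shortest of the 3 genes, and the part of gene span in the ratio was not tested.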
